A study of Mus musculus with 3 samples.

Results

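Cells with high *Aspn* were picked out of scRNA-Seq data of the postnatal mouse lung. The libraries came from whole lungs of 3 wild-type C57BL/6 mice (mice 2, 3, and 4) that were kept in room air (RA) from P1 and taken at P14. Each mouse gave 1 library, and no second genotype or treatment was included, so that replicates are mice and the comparisons are between sets of cells of the same mice. The 3 libraries held 3034, 3135, and 3475 cells and 23744510, 22476491, and 25192427 unique molecular identifiers (UMIs), the tags that mark single captured transcripts. Pairs of libraries shared 5, 2, and 5 cell barcodes, none of them among the *Aspn*-high cells. The *Aspn*-high cells were selected on measured UMIs. They had 200 or more detected genes, no more than 20% mitochondrial UMIs, 5 or more UMIs of *Col1a1* plus *Col1a2*, no UMI of *Ptprc*, *Cdh5*, or *Epcam*, 3 or more of *Aspn*, and 4 or fewer of *Myh11*. This gave 486 of the 7642 cells that passed the filter on genes and mitochondrial UMIs, out of 9644 cells in all. Mice 2, 3, and 4 gave 181, 114, and 191 such cells, or 7.59%, 4.38%, and 7.19% of those that passed (Clopper-Pearson 95% intervals 6.56 to 8.72, 3.63 to 5.24, and 6.24 to 8.24, which cover counting error only). Of the 1517 cells with 5 or more collagen I UMIs, called collagen cells here, 32.0% were *Aspn*-high. Their median depth was 9898.5 UMIs, against 11475 in the 1031 other collagen cells.

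Alveolar myofibroblasts are cells of the developing lung that lie at the tips and rims of the growing alveolar septa, lay down elastin, and respond to PDGF-A through the receptor PDGFRA. They are known for high matrix production and for smooth muscle actin, and they are most abundant while alveoli form after birth. *Aspn* encodes asporin, a small leucine-rich proteoglycan of the extracellular matrix that binds collagen and TGF-β. *Hhip* encodes a membrane protein that binds and sequesters Hedgehog ligands, *Tgfbi* a TGF-β-induced matrix protein, *Wnt5a* a ligand of noncanonical Wnt signaling, and *Pdgfra* the receptor for PDGF-A.

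*Aspn* lies on the plus strand of chr13:49544443-49567565 (GRCm38, GENCODE M21), in a row of related genes with *Ecm2* (chr13:49504810-49532789) before it and *Omd* (chr13:49582462-49592822) and *Ogn* (chr13:49608046-49624501) after it. All 4 genes overlap *Cenpp* on the minus strand, and the strand setting of the counting is not given in the sources used here. *Hhip* lies at chr8:79965851-80058006 on the minus strand, *Tgfbi* at chr13:56609523-56639562, *Wnt5a* at chr14:28504750-28527448, and *Pdgfra* at chr5:75152292-75198215, all on the plus strand. Levels are given in CPM, the UMIs of a gene per 1000000 summed UMIs of the same cells of 1 mouse, and as mean ± SD over 3 mice. Of the neighbors of *Aspn*, *Ecm2* was called higher in the *Aspn*-high cells (197 ± 15.3 CPM) than in the other collagen cells (90.4 ± 2.54 CPM). *Ogn* (345 ± 77.9 against 407 ± 53.7 CPM) and *Omd* (25.2 ± 28.5 against 12.2 ± 2.04 CPM) were not called, but in 385 of the *Aspn*-high cells chosen after seeing the data, called the core here, their log2 fold changes were -0.94 and -1.69, both called lower. *Ecm2* and *Omd* were named for their position, after their values had been seen.

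*Aspn* and *Myh11* chose the cells, so their levels are a description. *Aspn* reached 2670, 1874, and 2743 CPM in the *Aspn*-high cells of mice 2, 3, and 4. These cells held 61.4% of all *Aspn* UMIs of the cells that passed (64.7%, 56.3%, and 61.1% per mouse). A further 29.5% lay in 436 cells with 5 or more *Myh11* UMIs, called *Myh11*-type here, so *Aspn* did not mark 1 kind of cell alone. Among cells that met the other limits, 62 stood just inside the *Aspn* threshold (3 to 4 UMIs) and 109 just outside it (1 to 2 UMIs). The cells just inside had 167 CPM of *Hhip* and 22950 CPM of *Eln*, and those just outside 86.3 and 23112 CPM. Cells with 20 or more *Aspn* UMIs, 228 in all, had 695 CPM of *Hhip* and 50121 CPM of *Eln*. At the *Myh11* limit, 96 cells with 3 to 4 UMIs had 898 CPM of *Acta2*, 45 cells with 5 to 6 had 1192 CPM, and 221 cells with 7 or more had 8610 CPM. Neither limit fell in a gap between kinds of cells.

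**Figure D1:**
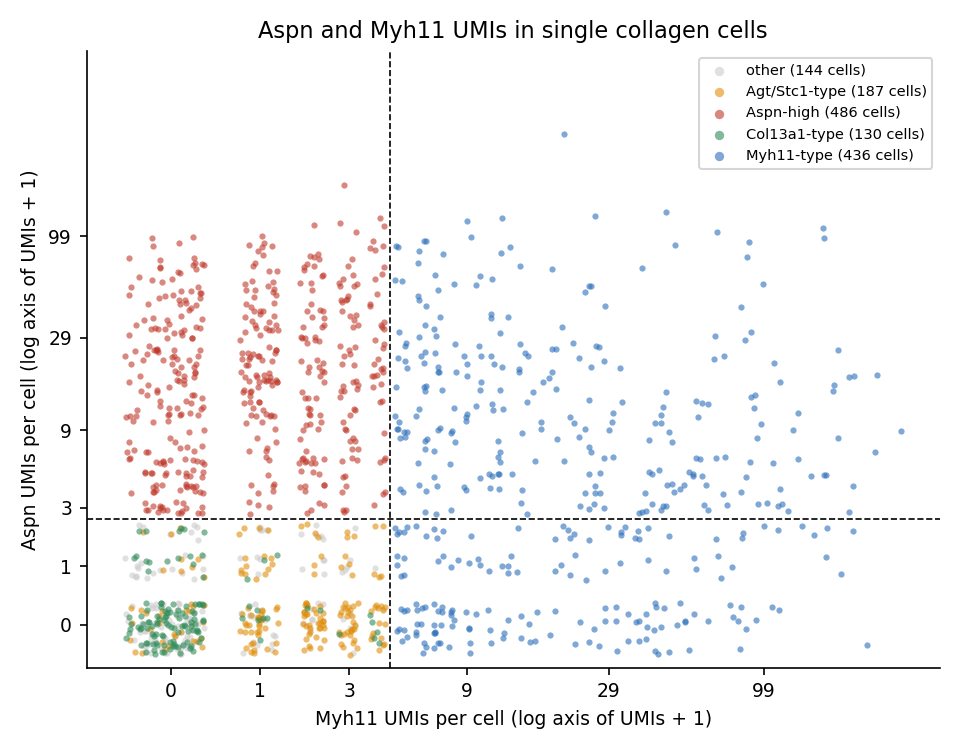
*Aspn* UMIs (vertical) against *Myh11* UMIs (horizontal) in single collagen cells free of *Ptprc*, *Cdh5*, and *Epcam* UMIs, on log axes of UMIs + 1 with a small random shift so that points do not cover each other. Dashed lines mark the limits of the rule, and the 486 *Aspn*-high cells fill the upper left field without a gap at either limit.

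The other 4 marker genes are also described without a test, since they were given as markers of the cells. *Hhip* reached 480, 373, and 436 CPM in the *Aspn*-high cells and 165, 166, and 115 CPM in the other collagen cells. *Wnt5a* reached 824, 843, and 1031 CPM against 295, 315, and 344 CPM. Both lay above the other collagen cells in every mouse without overlap. *Tgfbi* (1772, 1643, and 2070 CPM) also lay above the other collagen cells (927, 876, and 1079 CPM), but below a set of collagen cells with *Pdgfra* and *Agt* or *Stc1* (2577 ± 183 CPM), called *Agt*/*Stc1*-type here. *Pdgfra* did not set the *Aspn*-high cells apart. It stood at 519, 533, and 505 CPM, against 429, 545, and 485 CPM in the other collagen cells, and these values overlapped. The *Agt*/*Stc1*-type cells, for which *Pdgfra* was part of the choice, reached 1630 ± 156 CPM. Against all other cells of the lung, from which the rule keeps endothelial, epithelial, and immune cells apart, the log2 ratios were 4.22 for *Aspn*, 3.67 for *Hhip*, 3.60 for *Wnt5a*, 2.91 for *Tgfbi*, and 2.22 for *Pdgfra*.

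**Figure D2:**
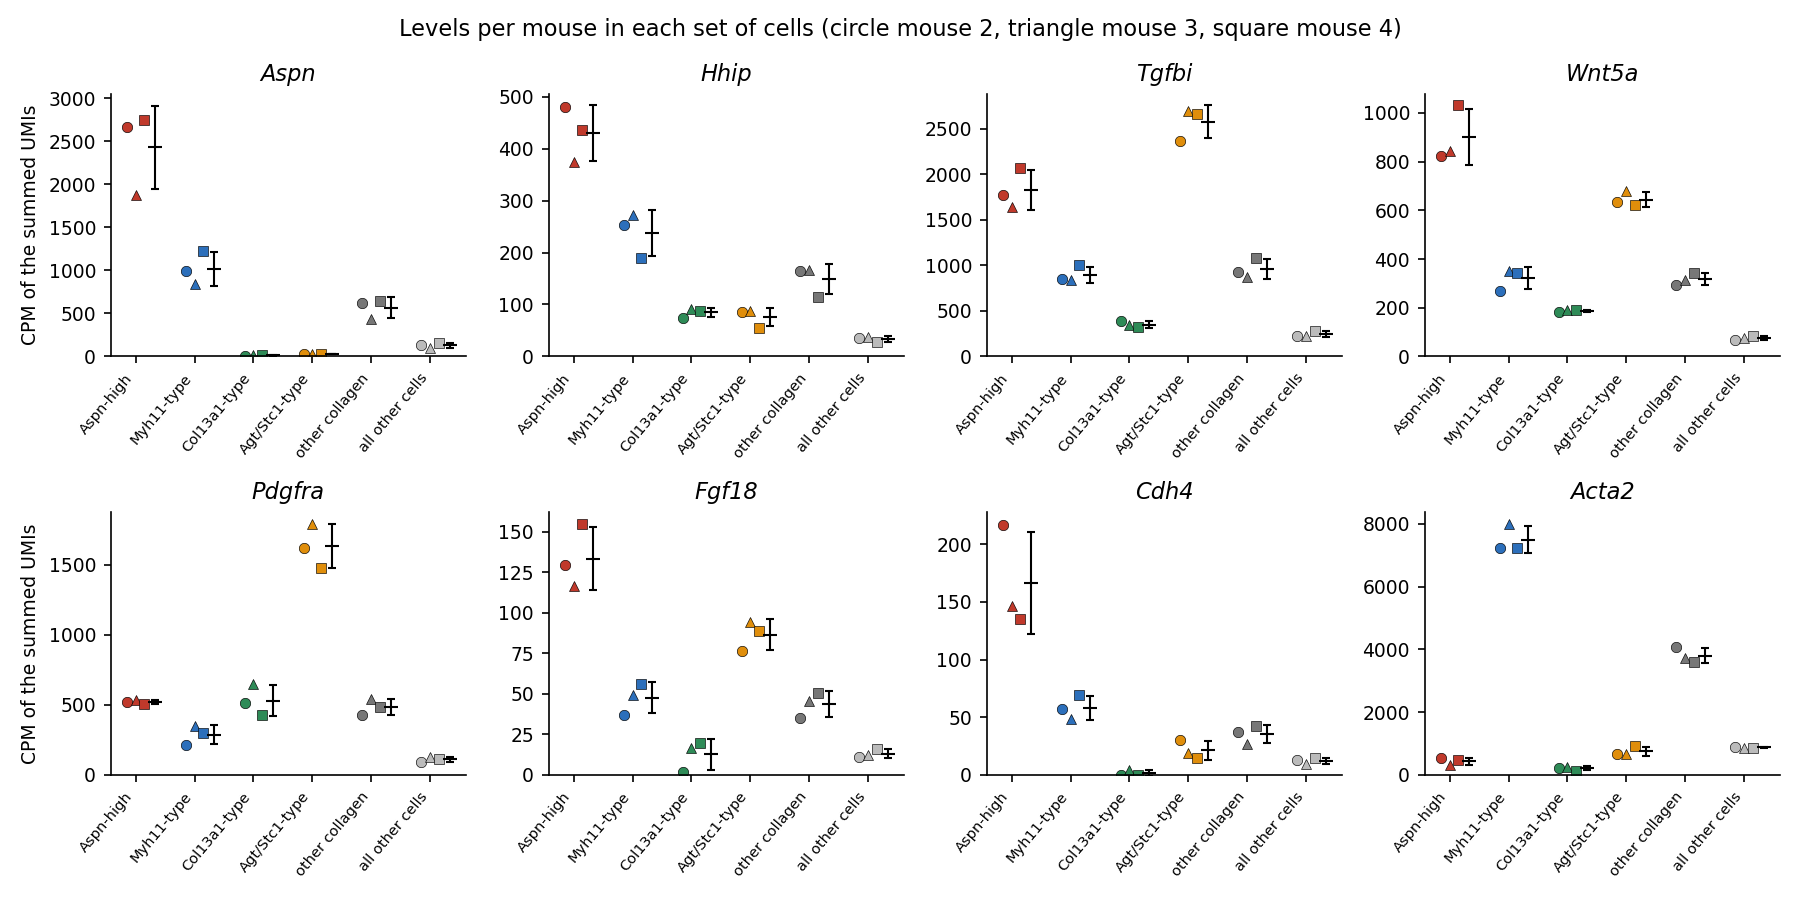
CPM of 8 genes in sets of cells, 1 point per mouse (circle mouse 2, triangle mouse 3, square mouse 4), with the mean and SD over 3 mice; axes start at 0. *Aspn*, *Hhip*, *Wnt5a*, *Fgf18*, and *Cdh4* were highest in the *Aspn*-high cells in every mouse, *Tgfbi* and *Pdgfra* in the *Agt*/*Stc1*-type cells, and *Acta2* in the *Myh11*-type cells.

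In single cells, a *Hhip* UMI was found in 53.0% ± 3.59 of the *Aspn*-high cells, and in 33.3% ± 3.04 after each cell was thinned to 2000 UMIs (3 shallower cells left out; median depth 9898.5 UMIs). The thinned share was 81.4% ± 4.44 for *Tgfbi*, 71.5% ± 4.41 for *Wnt5a*, and 50.6% ± 3.19 for *Pdgfra*. In 1906 cells with 3 or more *Ptprc* UMIs (median depth 4239 UMIs, 117 left out), which should lack *Hhip*, *Wnt5a*, and *Pdgfra*, the thinned share was 0.0521% ± 0.0462 for *Hhip*, 0.150% ± 0.0784 for *Wnt5a*, 0.151% ± 0.132 for *Pdgfra*, and 8.33% ± 0.988 for *Tgfbi*. *Tgfbi* is also known from monocytes and macrophages, so its share in these cells is no background. The other 3 shares in the *Aspn*-high cells lay above theirs.

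The *Aspn*-high cells were not uniform. *Hhip* had no UMI in 229 of the 486 cells (47.1%), and *Tgfbi* had none in 52. Limits on *Tgfbi*, *Dcn*, and *Npnt* set after seeing the data split them into 4 groups, which are described without tests. The core, 385 cells (79.2%; 150, 78, and 157 per mouse), had 2 or more *Tgfbi* UMIs and 9 or fewer each of *Dcn* and *Npnt*. Their levels were 3101 ± 307 CPM of *Aspn*, 547 ± 39.9 of *Hhip*, 1200 ± 134 of *Wnt5a*, and 48616 ± 3820 of *Eln*. Against the rest of the *Aspn*-high cells, their leading genes were *Agt* (angiotensinogen; 682 against 12.5 CPM), *Mustn1*, *Rgs2*, and *Tnc*, which encodes the matrix glycoprotein tenascin-C.

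The 44 *Dcn*-rich cells (15, 18, and 11 per mouse) were led by genes known from adventitial fibroblasts and from cartilage. *Serpinf1* stood at 1486 ± 201 CPM, *Lum* at 1222 ± 212 CPM, and *Col14a1* at 1969 ± 480 CPM, while *Aspn* was at 537 ± 63.2 and *Hhip* at 117 ± 41.1 CPM. Cartilage RNA lay in few cells. Of 1100 *Col2a1* UMIs in the *Aspn*-high cells, 1091 were in 5 cells of mouse 3, and the summed level of 7 cartilage markers in all *Aspn*-high cells was 30.5, 1332, and 18.7 CPM in mice 2, 3, and 4. The 22 *Npnt*-rich cells (5, 10, and 7) had 3195 ± 250 CPM of *Limch1*, 1750 ± 953 of *Inmt*, and 912 ± 264 of *Tcf21*, which are markers of *Col13a1*-type alveolar fibroblasts, and 350 ± 105 CPM of *Aspn*. The 35 *Tgfbi*-poor cells (11, 8, and 16) carried pericyte genes, with 829 ± 428 CPM of *Notch3*, 945 ± 560 of *Mcam*, and 708 ± 450 of *Higd1b*. In the core these 3 genes stood at 26.1 ± 14.8, 17.1 ± 9.70, and 1.96 ± 1.13 CPM.

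**Figure D3:**
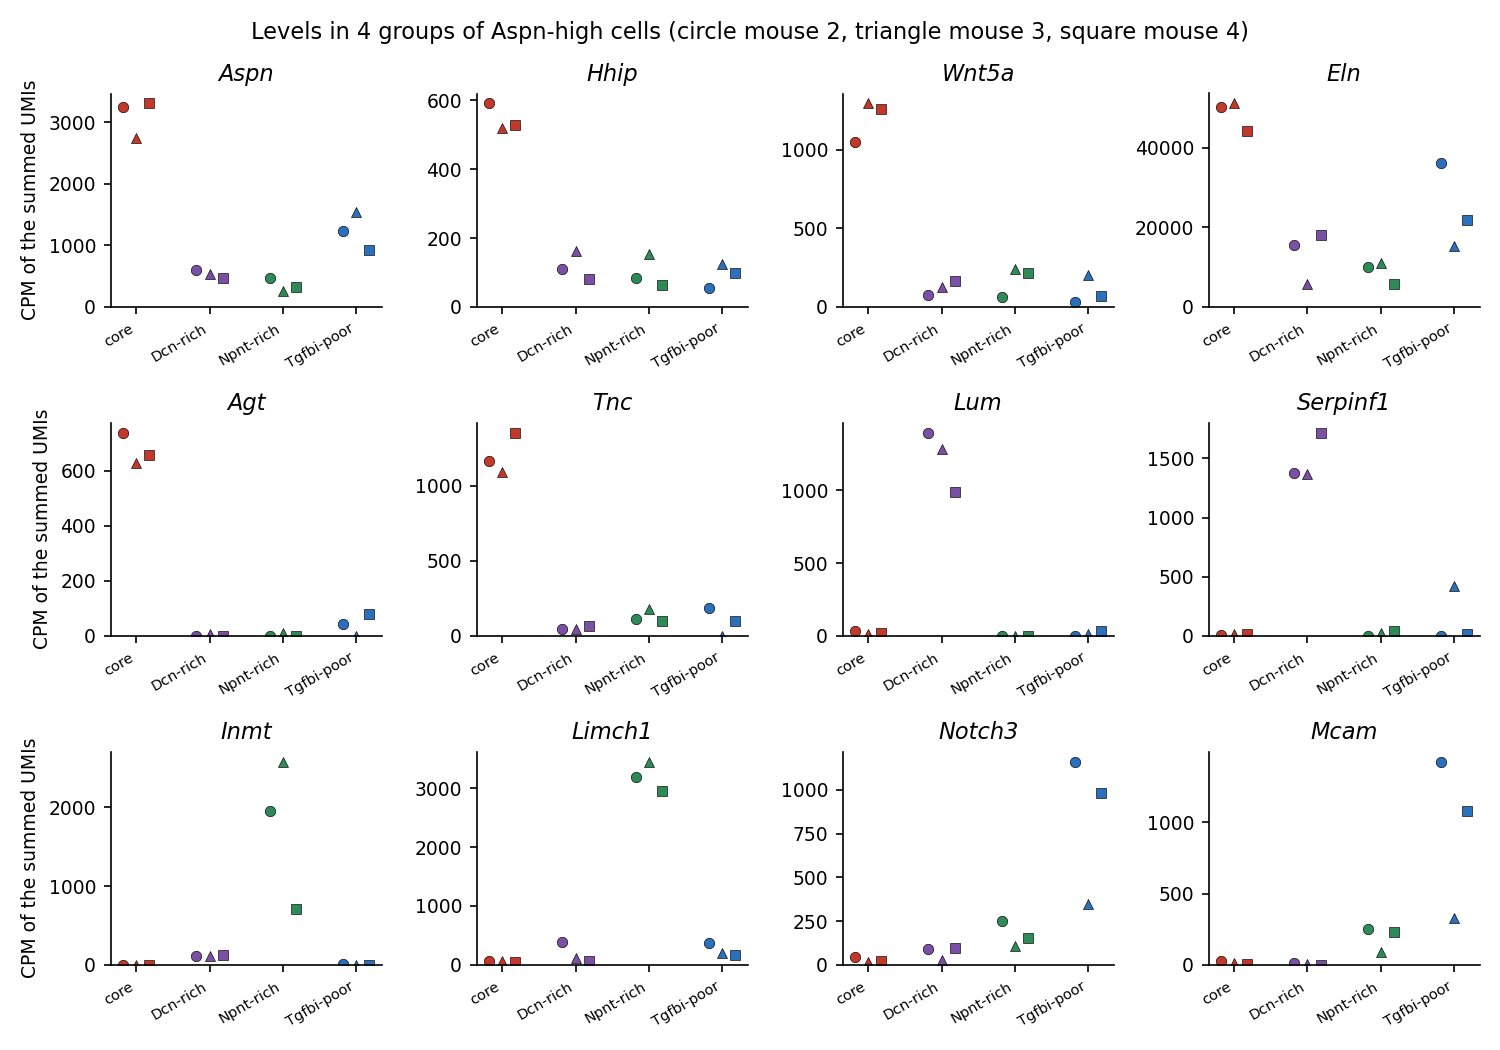
CPM of 12 genes in the 4 groups of *Aspn*-high cells (core, *Dcn*-rich, *Npnt*-rich, and *Tgfbi*-poor), 1 point per mouse; axes start at 0. *Aspn*, *Hhip*, *Wnt5a*, *Eln*, *Agt*, and *Tnc* were highest in the core in every mouse, *Lum* and *Serpinf1* in the *Dcn*-rich cells, *Inmt* and *Limch1* in the *Npnt*-rich cells, and *Notch3* and *Mcam* in the *Tgfbi*-poor cells.

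The *Aspn*-high cells were then compared with the 1031 other collagen cells. *Eln*, *Col3a1*, and several growth factor genes were higher. Contractile and Notch pathway genes were lower, and the limit on *Myh11* applies to the *Aspn*-high cells alone. UMIs were summed per mouse, a gene was called at an adjusted p under 0.05 (edgeR, quasi-likelihood, Benjamini-Hochberg), and changes are log2 fold changes with their standard error (SE). Of 11592 genes tested, 814 (7.02%) were higher and 1169 (10.1%) lower in the *Aspn*-high cells. Without mouse 2 these counts were 364 and 690, and without mouse 4 they were 402 and 688. The other collagen cells included 134 cells with a *Ptprc*, *Cdh5*, or *Epcam* UMI, and all 9 tested endothelial and all 9 tested epithelial markers were lower in the *Aspn*-high cells. Without the 134 cells, 1 of 5 endothelial and 1 of 4 epithelial markers tested were lower. Over all genes, 670 were higher and 878 lower without the 134 cells, and 632 and 887 with cells of 5000 to 30000 UMIs. With only the core on the side of the *Aspn*-high cells, 1106 genes were higher and 1803 lower. Of the 814 genes called higher with all *Aspn*-high cells, 675 (82.9%) were also higher in the core, and 7 were lower in it.

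**Figure D4:**
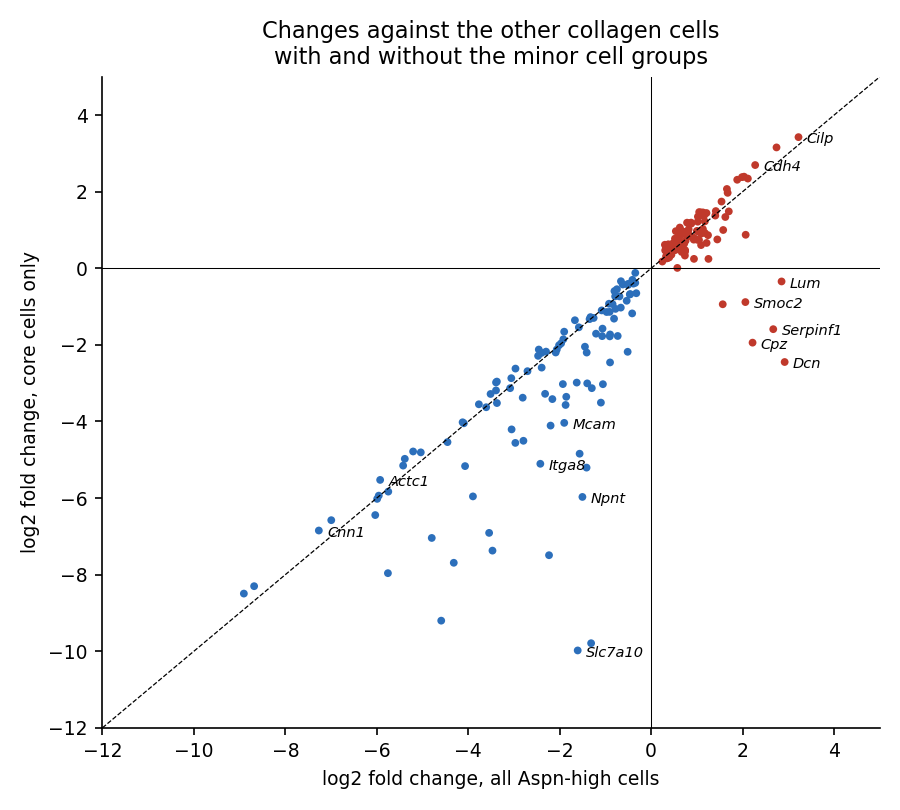
Log2 fold change against the other collagen cells with all 486 *Aspn*-high cells (horizontal) and with the 385 core cells (vertical), 1 point per called gene named by the rule on genes; red, higher with all cells; blue, lower. *Cilp* and *Cdh4* stayed near the dashed line of equal values, whereas *Dcn*, *Lum*, *Serpinf1*, *Cpz*, and *Smoc2* lay above 0 with all cells and below 0 with the core.

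Of 20 tested elastic fiber genes 12 were higher and 2 lower, with a median log2 fold change of 0.60, against 0.00 over all genes, and with the core 11 were higher and 5 lower of 19. *Eln*, which encodes tropoelastin, stood at 43224, 34147, and 38355 CPM per mouse in the *Aspn*-high cells and at 26994, 25192, and 23192 CPM in the other collagen cells. The values did not overlap (0.66, SE 0.11, adjusted p = 0.0022). *Mfap5*, a microfibril protein gene, rose by 1.58 (SE 0.22) and *Fbln1*, which encodes fibulin-1, by 1.10 (SE 0.09). *Fbln5*, which encodes fibulin-5, fell by 0.51 (SE 0.12), and *Ltbp1*, which encodes a latent TGF-β binding protein, by 0.90 (SE 0.21), and with the core their log2 fold changes were -2.18 and -1.78. With all *Aspn*-high cells, neither fall was called without mouse 2 (-0.40, adjusted p = 0.19 and -0.70, adjusted p = 0.13; edgeR), nor that of *Ltbp1* without mouse 4 (-0.83, adjusted p = 0.12). With a *Myh11* limit of 1, *Fbln5* was at 0.057 and the rise of *Eln* was not called (0.39, adjusted p = 0.097). Among the sets described below, core *Fbln5* and *Ltbp1* stood at -1.72 and -2.45 against the *Myh11*-type cells. Both were also lower against the *Col13a1*-type cells (-3.71 and -1.82). Against the *Agt*/*Stc1*-type cells they went the other way, at 0.71, not called, and 1.35, called higher. Of 19 tested collagen genes besides *Col1a1* and *Col1a2*, 11 were higher and 3 lower (median 0.74), and with the core 10 were higher and 7 lower. *Col3a1*, the collagen III gene, reached 16525, 15815, and 14976 CPM against 5263, 5618, and 4974 CPM, without overlap (1.62, SE 0.08, adjusted p = 3.3e-06). *Col12a1*, which encodes a fibril-associated collagen, rose by 1.67 (SE 0.09). *Col18a1* and *Col4a1* encode collagens of basement membranes. *Col18a1* fell by 3.05 (SE 0.16) and *Col4a1* by 0.46 (SE 0.09), the latter not called without mouse 2 (-0.47, adjusted p = 0.071) or mouse 4 (-0.46, adjusted p = 0.056; edgeR).

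Other matrix genes and small leucine-rich proteoglycans rose more often than they fell, but this changed when only the core was used. Of 22 other matrix genes 9 were higher and 4 lower, and with the core 8 were higher and 9 lower. *Tnxb*, which encodes tenascin-X, reached 542, 518, and 498 CPM against 229, 200, and 178 CPM, with no overlap (1.40, SE 0.10, adjusted p = 2.6e-05). *Cilp*, a cartilage intermediate layer protein gene, reached 53.6, 45.8, and 81.0 CPM against 4.80, 3.37, and 11.4 CPM (3.22, SE 0.36, adjusted p = 0.00029). It rose most of the genes that reached 50 CPM in either set and went the same way in all 3 mice. Of 10 proteoglycan genes 6 were higher and none lower (median 0.94). *Dcn*, the decorin gene, stood at 802, 1650, and 653 CPM against 117, 175, and 130 CPM (2.92, SE 0.32, adjusted p = 0.00024). In the core, for which low *Dcn* was part of the choice, *Dcn* was at 26.2 ± 5.56 CPM, with a log2 fold change of -2.45, and the list had 4 genes higher and 4 lower. *Lum* (2.85 with all cells, -0.34 with the core), *Serpinf1* (2.67 and -1.59), *Cpz* (2.22 and -1.94), *Smoc2* (2.06 and -0.88), and *Twist2* (1.57 and -0.94) also changed sign. The core values of *Lum*, *Smoc2*, and *Twist2* were not called. *Podn* (1.70 and 1.49) and *Bgn* (0.70 and 0.62) did not change sign.

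Several of the genes with the largest rise had an equal or larger log2 fold change with the core. *Cdh4*, which encodes a cadherin, stood at 217, 146, and 135 CPM against 37.2, 27.2, and 42.1 CPM, without overlap (2.28, SE 0.21, adjusted p = 9.3e-05; 2.70 with the core). *Cacna1g*, a T-type calcium channel gene, rose by 2.12 (SE 0.13) and had 2.34 with the core. The same values were 2.03 and 2.39 for *Cntfr*, a cytokine receptor gene, 1.99 and 2.38 for *Pappa2*, which encodes a protease of IGF-binding proteins, and 1.88 and 2.31 for *2900055J20Rik*.

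Ligand genes were among the higher genes of the signaling lists. Of 14 FGF family genes 5 were higher and 1 lower. *Fgf18*, which encodes a ligand known from alveolar myofibroblasts, stood at 129, 116, and 155 CPM against 34.9, 45.6, and 50.6 CPM (1.66, SE 0.14, adjusted p = 5.8e-05), and the values did not overlap. *Fgf9*, another ligand gene, stood at 11.0, 13.5, and 22.8 CPM against 1.60, 1.57, and 3.94 CPM (2.74, SE 0.41, adjusted p = 0.0016), and it was not called with a *Myh11* limit of 1 (1.61, adjusted p = 0.056; edgeR). *Fgf7* rose by 0.82 (SE 0.09) and the feedback inhibitor *Spry1* by 0.87 (SE 0.08), and *Fgf1* fell by 2.39 (SE 0.25). With the mouse as a block, and also with the core, 4 FGF family genes were lower, and with cells of 5000 to 30000 UMIs 3 were. Of 28 Wnt pathway genes besides *Wnt5a* 7 were higher and 2 lower (10 and 8 of 27 with the core). The ligand genes *Wnt9a* and *Wnt11* rose by 1.54 (SE 0.16) and 1.05 (SE 0.16), the latter not called with a *Myh11* limit of 1 (0.65, adjusted p = 0.053, edgeR). The secreted Wnt antagonist *Sfrp2* fell by 4.80 (SE 0.43), from 112 ± 3.84 to 3.50 ± 5.19 CPM. Among sets with the same *Myh11* limit, described below, *Sfrp2* went the other way. Its 20 UMIs in the *Aspn*-high cells stood against 0 in the *Col13a1*-type cells (at least 2.3-fold higher). In the *Agt*/*Stc1*-type cells it had 1 UMI (ratio 8.02, counting interval 1.28 to 332). The part of the *Myh11* limit in the fall was not tested. Of 24 TGF-β and BMP pathway genes 7 were higher and 5 lower (median -0.04), and 3 were lower without the 134 cells with a *Ptprc*, *Cdh5*, or *Epcam* UMI. The ligand genes *Tgfb3* and *Bmp5* rose by 1.16 (SE 0.11) and 0.88 (SE 0.07), while *Inhba*, an activin subunit gene, fell by 1.86 (SE 0.27). *Inhba* also went the other way among sets with the same *Myh11* limit. Its 27 UMIs in the *Aspn*-high cells stood against 0 in the *Col13a1*-type cells (at least 3.07-fold higher). In the *Agt*/*Stc1*-type cells it had 2 UMIs (ratio 5.41, counting interval 1.36 to 47.0). The part of the *Myh11* limit in its fall was not tested.

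Of 10 IGF pathway genes 3 were higher and 1 lower, with the core 3 were higher and 5 lower, and without the 134 cells 6 were higher and 1 lower. *Igf1* reached 449, 513, and 434 CPM against 196, 158, and 185 CPM, with no overlap (1.41, SE 0.10, adjusted p = 2.6e-05), and *Igfbp5*, which encodes an IGF-binding protein, rose by 0.82 (SE 0.14). Of 10 Hedgehog pathway genes besides *Hhip*, 4 were higher and none lower. Without the 134 cells 3 were higher and 1 lower of 10, with cells of 5000 to 30000 UMIs 2 were higher and 1 lower of 10, and with the core 4 were higher and 1 lower of 9. The 4 genes were the coreceptor genes *Gas1* (1.01, SE 0.13) and *Boc* (0.74, SE 0.16), the signal transducer gene *Smo* (0.43, SE 0.08), and the transcription factor gene *Gli3* (0.52, SE 0.13). *Gli3* was not called without mouse 2 (0.50, adjusted p = 0.15, edgeR) or mouse 3 (0.40, adjusted p = 0.12, edgeR). Nor was it called with DESeq2, with cells of 5000 to 30000 UMIs, with a *Myh11* limit of 1, or without the 134 cells. *Smo* was not called without mouse 4 (0.34, adjusted p = 0.097, edgeR) or with cells of 5000 to 30000 UMIs. *Ptch1*, the receptor gene and a target of the pathway, was at 133 ± 7.99 against 154 ± 6.89 CPM and was not called. Of 6 PDGF family genes besides *Pdgfra* 1 was higher and 3 were lower, without the 134 cells 1 were higher and 2 lower of 5, and with cells of 5000 to 30000 UMIs 1 were higher and 1 lower of 5. *Pdgfrl* rose by 0.75 (SE 0.08), the ligand genes *Pdgfa* and *Pdgfb* fell by 0.66 (SE 0.09) and 4.07 (SE 0.62), the latter known from endothelium, which the rule on *Cdh5* keeps out of the *Aspn*-high cells alone. The pericyte receptor gene *Pdgfrb* (465 ± 84.0 against 561 ± 136 CPM) was not called. The list went otherwise among sets with the same *Myh11* limit, described below. Against the *Col13a1*-type cells 5 were higher and 0 lower of 5, and against the *Agt*/*Stc1*-type cells 2 and 1 of 5. With the core, the log2 fold changes of *Pdgfa* against these 2 sets were 0.84 and 0.98. The part of the *Myh11* limit in the fall of *Pdgfa* was not tested.

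Contractile genes were mostly lower. The limit on *Myh11*, itself a smooth muscle myosin gene, keeps cells with a contractile program out of the *Aspn*-high cells but not out of the other collagen cells. The rule thus bears on this direction. The calls of these genes are given as a description, and nothing is concluded from them. The *Myh11*-type cells held 44539 of the 52694 *Acta2* UMIs of the other collagen cells. Of 23 genes besides *Myh11*, none was higher and 20 were lower (median -1.33), and the counts with the core were 0 and 20. *Acta2*, which encodes smooth muscle α-actin, stood at 531, 320, and 470 CPM against 4072, 3736, and 3593 CPM (log2 fold change -3.06). *Cnn1*, the calponin-1 gene, stood at 2.63, 0.751, and 0 CPM against 251, 157, and 164 CPM, which made it nearly absent from the *Aspn*-high cells. The log2 fold change was -5.93 for *Actc1*, the cardiac actin gene, which is also on the list of myofibroblast markers, -3.08 for *Synpo2*, and -1.90 for *Tagln*. It was -1.35 for *Myl6*, a myosin light chain gene, and -0.62 for *Cald1*, the caldesmon gene. *Myocd*, which encodes a coactivator of serum response factor (SRF), stood at 16.1 ± 5.65 against 54.1 ± 1.58 CPM (-1.67). *Srf* itself, named after its values had been seen, stood at 44.2 ± 6.63 against 63.9 ± 9.22 CPM.

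The CArG box is the motif that SRF binds, and its sites are shown as a description of the contractile list. On either strand, it was found in the 250 bases before to 50 bases after the start of 5 of the 21 contractile genes with a RefSeq promoter (GRCm38.p6; 23.8%), of 488 of all 27025 promoters (1.81%), and of none of 17 collagen or 14 elastic fiber genes. Of 12 myofibroblast markers 1 had the motif (8.33%), namely *Actc1*, which is also on the contractile list. A match describes the sequence and not binding, and the shares describe the lists and not the *Aspn*-high cells. A part of SRF in the levels was not tested. The 5 sites are given 5′ to 3′ on the strand of the gene, with the motif in capitals. That of *Actc1* is at chr2:114052898-114052937 (minus strand, motif 47 bases before the start), *Cnn2* at chr10:79988529-79988568 (plus, 56 bases), *Myl6* at chr10:128493035-128493074 (minus, 50 bases), *Myl9* at chr2:156775288-156775327 (plus, 161 bases), and *Vcl* at chr14:20929156-20929195 (plus, 227 bases).
Actc1: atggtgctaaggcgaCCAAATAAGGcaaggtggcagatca
Cnn2: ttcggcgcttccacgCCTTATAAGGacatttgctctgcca
Myl6: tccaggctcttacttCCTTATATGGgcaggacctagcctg
Myl9: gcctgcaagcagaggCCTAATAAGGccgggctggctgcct
Vcl: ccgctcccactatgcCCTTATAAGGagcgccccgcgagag
*Acta2*, *Tagln*, and *Cnn1* had no such match in this window.

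Notch pathway genes were lower than in the other collagen cells as well, with 10 of 14 lower and none higher (median -1.40). The *Myh11*-type cells held 2268 of the 3147 *Notch3* UMIs of the other collagen cells, and the part of the *Myh11* limit in this direction was not tested. Against sets that carry the same *Myh11* limit, 4 were higher and 0 lower of 10 (*Col13a1*-type cells), and 3 higher and 1 lower of 10 (*Agt*/*Stc1*-type cells). With the core the counts were 2 higher and 2 lower, and 1 higher and 2 lower, of 10 each. Among the other collagen cells without the 134 that carried *Ptprc*, *Cdh5*, or *Epcam* UMIs, 6 of 10 were lower and none higher, and with the core 11 of 14 were lower. The receptor gene *Notch3*, known from pericytes and vascular smooth muscle, stood at 109, 45.1, and 90.8 CPM against 270, 197, and 215 CPM, with no overlap (log2 fold change -1.40). With the core, it stayed lower than in the other collagen cells, but its log2 fold change was 1.06 against the *Col13a1*-type and 1.43 against the *Agt*/*Stc1*-type cells. The log2 fold changes of the target genes *Hey2* and *Heyl* were -2.79 and -0.90. *Dll4*, a Notch ligand gene known from endothelium, had 2 UMIs in the *Aspn*-high cells against 123 in the other collagen cells. The rule on *Cdh5* keeps endothelial cells out of the *Aspn*-high cells alone, and its part in this difference was not tested. Among sets chosen with the same limit on *Cdh5*, *Dll4* had 0 UMIs in the *Myh11*-type, 1 in the *Agt*/*Stc1*-type, and 7 in the *Col13a1*-type cells, the last at 10.3 times the level of the *Aspn*-high cells (counting interval 1.95 to 101).

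Transcription factor genes went both ways, with 7 of 33 higher and 7 lower (with the core 11 were higher and 10 lower of 33, and with cells of 5000 to 30000 UMIs 4 were higher and 6 lower of 33). *Sox4* (0.32, SE 0.09) and *Tcf4* (0.35, SE 0.09) were higher, but neither was called once any 1 mouse was left out (*Sox4* 0.34, adjusted p = 0.19 without mouse 2, *Tcf4* 0.34, adjusted p = 0.15; edgeR). *Zfhx3* fell by 1.07 (SE 0.08). Of 18 cell cycle genes none was higher and 6 were lower. Without the 134 cells 0 were higher and 3 lower of 13, with the core 0 were higher and 10 lower of 17, and with the mouse as a block 0 were higher and 9 lower of 18. *Ube2c*, which encodes a ubiquitin-conjugating enzyme of mitosis, fell by 3.37 (SE 0.54). *Ccnb1*, the cyclin B1 gene, had no UMI in the *Aspn*-high cells, which puts it at least 11.6-fold lower (3 UMIs over all the cells taken as the floor), and *Mki67* (29.3 ± 14.5 against 55.8 ± 31.2 CPM) was not called. At 2000 UMIs per cell, an *Mki67* UMI was found in 5.03% ± 2.18 of the *Aspn*-high and 3.62% ± 0.684 of the other collagen cells, from which no order is read. Of 12 immediate early genes, which respond to stress and dissociation, 2 were higher and 4 lower (7 lower with the core). The heat shock gene *Hspa1a* fell by 1.45 (SE 0.14) and *Atf3* by 2.47 (SE 0.53) (-2.06, adjusted p = 0.14 without mouse 4, edgeR).

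Markers of other cell types were checked in the *Aspn*-high cells. Summed over each list, the 10 endothelial markers gave 80.4, 86.4, and 74.7 CPM per mouse (9 with a UMI, most from *Ramp2*, and *Cdh5* at 0 by the rule), the 10 epithelial markers 268, 131, and 317 CPM (9 with a UMI, most from *Sftpc*, and *Epcam* at 0 by the rule), and the 10 immune markers 34.2, 44.3, and 42.6 CPM (9 with a UMI, most from *Lyz2*, and *Ptprc* at 0 by the rule). The *Myh11*-type cells, free of the same 3 genes, had 101, 80.7, and 86.5 CPM, 262, 155, and 276 CPM, and 33.9, 24.1, and 43.9 CPM, so the sums overlapped in each list. Of the immune markers 5 of 6 tested were lower than in all other collagen cells, and none of 2 without the 134 cells. Of 5 erythrocyte markers none reached the filter, of 6 cartilage markers none was called, and the 1 mesothelial marker tested was lower.

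Of 10 smooth muscle markers besides *Myh11*, 1 was higher and 8 were lower, a direction on which the *Myh11* limit bears. The exception was *Rgs5* (0.94, SE 0.16), which encodes a regulator of G protein signaling known from pericytes, and it was not called with the core (0.25). Of 11 pericyte markers 2 were higher and 3 lower, and 8 were lower with the mouse as a block and also with the core. The higher ones encode subunits of a potassium channel, *Abcc9* (0.70, SE 0.10) and *Kcnj8* (0.59, SE 0.14; 0.60, adjusted p = 0.1 without mouse 4, edgeR), and *Mcam*, an adhesion molecule gene, fell by 1.90 (SE 0.25). Of 16 *Col13a1*-type fibroblast markers 1 was higher and 7 were lower, and with the core 1 were higher and 14 lower of 16. Of 11 *Col14a1*-type markers 7 were higher and none lower, but 3 of 10 were higher and 6 lower with the core. Of 10 tested genes on the list of myofibroblast markers 4 were higher and 1 lower, and with the core 7 were higher and 1 lower of 10. *Cdh4*, *Fgf18*, *Enpp2* (1.02, SE 0.08), and *Mustn1* (0.54, SE 0.12) were higher, and *Actc1* was lower. *Mustn1* was not called without mouse 4 (0.50, adjusted p = 0.13, edgeR) or with a *Myh11* limit of 1 (0.33, adjusted p = 0.23, edgeR). Of the *Agt* and *Stc1* fibroblast markers besides *Pdgfra*, *Stc1* was lower and *Agt* was higher. *Agt* was not called without mouse 2 (0.53, adjusted p = 0.099, edgeR) or without mouse 4 (0.62, adjusted p = 0.11, edgeR). Nor was it called with cells of 5000 to 30000 UMIs, with a *Myh11* limit of 1, or without the 134 cells (0.45, adjusted p = 0.056, edgeR). With the core, chosen after seeing the data, its log2 fold change was 1.06.

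The *Aspn*-high cells were also compared with 3 sets of collagen cells free of *Ptprc*, *Cdh5*, and *Epcam* UMIs, in 1 fit that shares the estimate of the spread. These sets are part of the other collagen cells, and all comparisons share the *Aspn*-high cells, so they are not independent. The genes that define each set are described only.

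Against the 436 *Myh11*-type cells (157, 117, and 162 per mouse), the *Aspn*-high cells had more *Col3a1* and *Fgf18*. Of 10233 genes tested, 1031 (10.1%) were higher and 1079 (10.5%) lower (with the core 993 and 1272), and without mouse 2 the higher genes were 670. The 2 sets are split on *Myh11*, a contractile gene, which sets the direction of genes that go with it. The calls of contractile genes are therefore given as a description, and nothing is concluded from them. All 23 besides *Myh11* were called lower (median -2.10), and with the core 0 were higher and 22 lower of 23. *Acta2* stood at 7486 ± 431 CPM in the *Myh11*-type cells and 440 ± 109 CPM in the *Aspn*-high cells. *Sost*, which encodes the Wnt antagonist sclerostin, *Mylk4*, and *Plin4* had no UMI in the *Aspn*-high cells, at least 163-, 121-, and 113-fold lower. *Eln* stood at 38575 ± 4542 against 34423 ± 2691 CPM and was not called, and the values overlapped, but with the core its log2 fold change of 0.46 was called. *Col3a1* rose by 1.69 (SE 0.08), *Cdh4* by 1.49 (SE 0.18), *Fgf18* by 1.47 (SE 0.17), and *Igf1* by 1.25 (SE 0.15). The log2 fold changes of *Notch3* and *Hey2* were -2.20 and -3.78, and the part of the split on *Myh11* in them was not tested. *Adh1*, an alcohol dehydrogenase gene, rose by 4.87 (SE 0.33). *Dpep1*, a membrane dipeptidase gene, had 278 UMIs in the *Aspn*-high cells and 1 in the *Myh11*-type cells (ratio 322, interval 57.3 to 12770). *Inmt* had 713 UMIs against 3 (ratio 275, interval 93.8 to 1339), of which 454 lay in 17 cells of mouse 3. With the core, the log2 fold changes of *Dpep1* (2.58) and *Inmt* (1.82) were not called and that of *Adh1* was 2.57. Of the myofibroblast markers 4 were higher and 2 lower of 10, and with the core 5 were higher and 1 lower of 10.

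The next set held 130 *Col13a1*-type cells (38, 51, and 41 per mouse). They had 2 or more *Col13a1* UMIs, and no more than 1 of *Col14a1*, 2 of *Aspn*, and 4 of *Myh11*. *Eln*, *Thbs2*, and *Fgf18* were higher in the *Aspn*-high cells, but matrix and FGF lists went both ways. With all *Aspn*-high cells, 9 were higher and 5 lower of 19 elastic fiber genes, and 10 and 6 of 22 other matrix genes. Of 14 FGF family genes 5 were higher and 7 lower. With the core, 8 were higher and 7 lower of 18 elastic fiber genes, 8 and 9 of 22 other matrix genes, and 5 and 7 of 14 FGF family genes. Of 10231 genes tested, 1336 (13.1%) were higher and 1435 (14.0%) lower (with the core 1411 and 1577), and without mouse 4 the lower genes were 916. All 10 tested myofibroblast markers rose (median 3.28), among them *Fgf18* (3.27, SE 0.29). *Actc1*, also among them, was not called with a *Myh11* limit of 1 (1.44, adjusted p = 0.45, edgeR) or without mouse 3 (3.42, adjusted p = 0.092, edgeR). Of its 51 UMIs in the *Aspn*-high cells, 39 were in mouse 2, with 25 in 1 cell. *Cdh4* had 869 UMIs in the *Aspn*-high and 3 in the *Col13a1*-type cells (ratio 98.8, interval 33.7 to 480), and *Lgr6*, which encodes a receptor for R-spondins, had 473 and 2 (ratio 80.7, interval 22.2 to 668). *Eln* rose by 1.60 (SE 0.13) and *Thbs2*, the thrombospondin-2 gene, by 4.79 (SE 0.29). Of 11 pericyte markers 10 were higher, and with the core, which leaves out the *Tgfbi*-poor cells with pericyte genes, 7 were. They were led in level by *Postn*, which encodes the matrix protein periostin (680 ± 48.4 against 23.4 ± 14.4 CPM). Contractile genes went both ways here, with 11 higher and 8 lower of 23, and *Acta2* rose by 0.99 (SE 0.19), from 210 ± 61.1 to 440 ± 109 CPM, which was not called with a *Myh11* limit of 1 (0.38, adjusted p = 0.14; edgeR). *Npnt*, which encodes the integrin ligand nephronectin, fell by 3.99 (SE 0.30), *Limch1* by 3.42 (SE 0.21), and the transcription factor gene *Tcf21* by 2.87 (SE 0.24). With the core, which was chosen in part for few *Npnt* UMIs, their log2 fold changes were -8.45, -5.82, and -5.74. The ligand gene *Fgf10* stood at 22.3 ± 1.14 against 86.0 ± 7.03 CPM and fell by 2.01 (SE 0.20).

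Against 187 *Agt*/*Stc1*-type cells (1 or more *Pdgfra* UMIs, 2 or more of *Agt* and *Stc1* together, and no more than 1 of *Col13a1*, 2 of *Aspn*, and 4 of *Myh11*; 53, 57, and 77 per mouse), collagen and proteoglycan genes were higher in the *Aspn*-high cells. Of 10230 genes tested, 962 (9.40%) were higher and 437 (4.27%) lower, and without TMM scaling 861 were higher and 603 lower. Without mouse 2 the counts were 638 and 259, and without mouse 4 they were 640 and 257. Of 18 collagen genes 16 were higher and 2 lower (median 1.14), and of 9 proteoglycan genes 8 were higher (median 3.70). With the core, 11 were higher and 2 lower of 17 collagen genes and 4 were higher and 0 lower of 8 proteoglycan genes, with *Dcn* at -0.60 and *Lum* at 0.53. Of 19 elastic fiber genes 11 were higher and 1 lower, and with the core 9 and 1 of 18. Over all genes, 655 were higher and 444 lower with the core, and 540 (56.1%) of the 962 genes called higher were among the 655. Of 10 myofibroblast markers 4 were higher and 3 lower (with the core 6 were higher and 3 lower of 10). Summed over the 14 listed markers other than *Aspn* and *Pdgfra*, which were used to choose the sets, the levels of 6512, 5568, and 6781 CPM in the *Aspn*-high cells lay below those of 7131, 7569, and 7137 CPM in the *Agt*/*Stc1*-type cells, without overlap. Such a sum weighs abundant genes most, among them *Tgfbi*, and the core was not summed. With the core, for which *Tgfbi* was part of the choice, the log2 fold changes were -0.04 for *Tgfbi*, 2.95 for *Hhip*, and 0.95 for *Wnt5a*. The sum thus gives no order of the 2 sets for the markers as a whole. *Col3a1* rose by 1.04 (SE 0.08), *Cdh4* by 3.11 (SE 0.28), and *Igf1* by 1.17 (SE 0.16). *Eln* was called higher (0.47, SE 0.13, adjusted p = 0.014), but its values of 43224, 34147, and 38355 CPM overlapped those of 28223, 36014, and 23725 CPM, and it was not called without mouse 2 (0.33, adjusted p = 0.32) or mouse 4 (0.35, adjusted p = 0.12; edgeR). *Fgf18* rose by 0.70 (SE 0.18), from 86.7 ± 9.47 CPM, the highest level of the 3 sets (0.61, adjusted p = 0.15 without mouse 4). *Cilp* had 319 UMIs against 1 (ratio 128, interval 22.8 to 5068). *Ptges*, a prostaglandin E synthase gene, fell by 2.43 (SE 0.24), *Ccnd1*, the cyclin D1 gene, by 2.34 (SE 0.19), and *Lef1*, a transcription factor gene of canonical Wnt signaling, by 1.98 (SE 0.20). *Acta2* fell by 0.70 (SE 0.17), from 754 ± 145 CPM (-0.56, adjusted p = 0.062 without mouse 4). Of 15 cell cycle genes 6 were lower and 1 was higher, and with the core 8 were lower and 0 higher of 13. Of 12 immediate early genes 9 were higher than in the *Agt*/*Stc1*-type cells and 9 than in the *Col13a1*-type cells, while 6 were lower than in the *Myh11*-type cells. With the core these counts were 4, 8, and 9, and the part of these genes in the other differences was not tested.

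**Figure D5:**
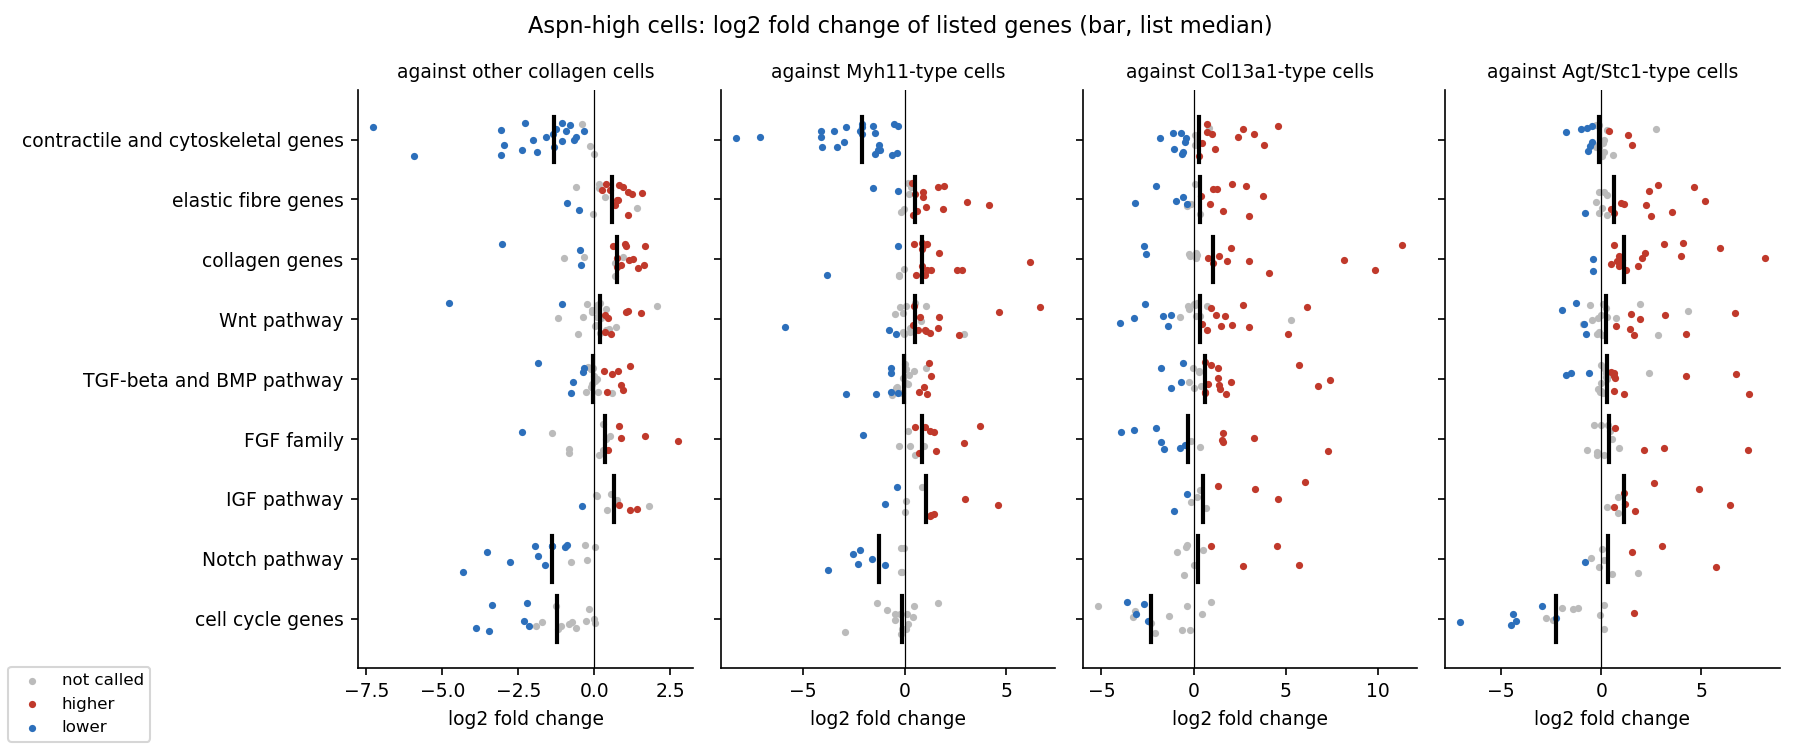
Log2 fold change of the *Aspn*-high cells (horizontal) for the genes of 9 lists in 4 comparisons, 1 point per tested gene (red higher, blue lower, gray not called) and a bar at the list median. All 23 contractile genes were lower against the *Myh11*-type cells, which are split from the *Aspn*-high cells on *Myh11*, while 11 were higher and 8 lower against the *Col13a1*-type cells; 11, 14, 10, and 16 collagen genes were higher in the 4 comparisons, from left to right. Points far from 0 include genes with few UMIs in 1 of the sets.

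*Hhip* varied within the core. Of the 385 core cells, 158 had 3 or more *Hhip* UMIs, 66 had 1 or 2, and 161 had none. Across the core cells, *Hhip* and *Pdgfra* went against each other (Spearman ρ -0.33, -0.32, and -0.35 in mice 2, 3, and 4, over 150, 78, and 157 cells), as did *Aspn* and *Pdgfra* (-0.53, -0.58, and -0.62), while *Hhip* and *Aspn* went together (0.24, 0.39, and 0.38). Cells of 1 mouse share a library, and the depth of the cell went weakly against both *Hhip* (-0.12, -0.24, and -0.21) and *Aspn* (-0.25, -0.29, and -0.31). Summed per mouse, cells with 3 or more *Hhip* UMIs had 455, 618, and 426 CPM of *Pdgfra*, and cells with none had 677, 768, and 660 CPM, without overlap. *Fgf18* stood at 222, 216, and 227 CPM against 106, 129, and 169 CPM. *Tnc* went the other way, at 875, 903, and 881 CPM against 1481, 1301, and 1796 CPM, and neither gene overlapped. The genes that differed most toward the *Hhip*-rich core cells were *Ptgis*, the prostacyclin synthase gene (177 against 23.3 CPM over the pooled cells), *Ednrb*, an endothelin receptor gene (93.9 against 6.14), and *Enpp2*, which encodes autotaxin (515 against 108). Those toward cells without *Hhip* were *Igfbp2*, an IGF-binding protein gene (5.11 against 68.2 CPM), *Col8a1* (0 against 45.4, most of it in mouse 2), and *Wisp1*, a matricellular protein gene (56.8 against 154).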

How the data were processed

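scRNA-Seq libraries of 3 lungs were analyzed. The authors made them with the 10x v3 kit, processed each with Cell Ranger 3.0.2 (version and build mm10 from the submitters' processing notes), and deposited UMI counts that were not normalized. The annotation release and strand setting of the counting are not given in the sources used here. The members, the lists of genes, and the tests were chosen with earlier results of these data known. Positions are from GENCODE M21 (GRCm38, the same assembly as mm10).

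UMIs were summed per mouse and set of cells (10 or more cells per sum) and tested with edgeR 4.0.16 (R 4.3.3; quasi-likelihood test, TMM, filterByExpr, Benjamini-Hochberg adjustment over all genes tested, threshold 0.05). The genes used by the rule, the given markers, and the genes that define a compared set were not tested. Other tools were Python 3.11.15, numpy 2.4.6, scipy 1.17.1, pandas 2.3.3, and scikit-learn 1.9.0. Genes named are those of the rule, the markers, up to 4 most abundant and 3 most changed members of each list in each direction, the 12 (other collagen cells) or 6 (each other comparison) with the largest rise and fall of at least 50 CPM in the same direction in all mice, and *Dll4*. Other genes, including those that lead the groups within the *Aspn*-high cells, were named after their values had been seen. 1 gene that met these conditions for naming is not reported here.

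The libraries differed from each other beyond sampling noise (chi-square over its degrees of freedom 36.0, 8.68, and 29.9). Doublets were scored against simulated doublets, and 0.8% per 1000 cells were marked (46, 54, and 56 cells, 4 of them *Aspn*-high) but kept. Each animal gave a sum to every set, and the deviations of such sums from the set means correlated with a median r of 0.296 (0.0231 to 0.619, 18 pairs, 3777 genes). The pairing comes from the animal, and a fit with a block for it was run as well. On simulated data, the test recovered 94%, 96%, 94%, and 93% of genes changed by 2 on the log2 scale against the other collagen, *Myh11*-type, *Col13a1*-type, and *Agt*/*Stc1*-type cells, and 44%, 50%, 30%, and 27% of those changed by 1. The simulated counts were independent, with the same dispersion for every gene and no effect of the mouse. Changes were given only to genes above a low level. The rates need not hold for the real data, whose sums are paired by mouse. Alternatives were other filters on cells, *Aspn* limits of 2 and 5, a *Myh11* limit of 1, removal of marked doublets, cells of 5000 to 30000 UMIs, other collagen cells without *Ptprc*, *Cdh5*, and *Epcam* UMIs, DESeq2 1.42.0, library totals in place of TMM, all genes with a UMI in place of the filter, the block, and leaving out each mouse. The core cells were added after seeing the data.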

Additional observations from a re-analysis of the deposited data

How the results depend on the processing

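The mean number of *Aspn*-high cells per mouse was 162 and moved to 104 with a *Myh11* limit of 1, and without 1 mouse it was 147.5 to 186. Leaving out 1 mouse gave 364 to 609 higher and 688 to 1141 lower genes against the other collagen cells (402 higher and 688 lower without mouse 4; 364 and 690 without mouse 2), 670 to 869 higher and 778 to 1016 lower against the *Myh11*-type cells, 902 to 1201 and 916 to 1328 against the *Col13a1*-type cells, and 638 to 809 and 257 to 375 against the *Agt*/*Stc1*-type cells. With the core alone, 1803 genes were lower than in the other collagen cells. A fit without 1 mouse holds fewer samples, and other causes were not tested.

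With the core, log2 fold changes that were above 0 fell below it for *Cpz* (-1.94), *Dcn* (-2.45), *Lum* (-0.34), *Serpinf1* (-1.59), *Smoc2* (-0.88), and *Twist2* (-0.94) against the other collagen cells, for *Col14a1* (-0.45), *Dcn* (-0.65), and *Tcf21* (-1.16) against the *Myh11*-type cells, for *Serpinf1* (-0.13) against the *Col13a1*-type cells, and for *Dcn* (-0.60) and *Higd1b* (-2.35) against the *Agt*/*Stc1*-type cells. The core values of *Lum*, *Smoc2*, and *Twist2* against the other collagen cells were not called. Nor were those of *Dcn* against the *Myh11*-type and *Agt*/*Stc1*-type cells, or of *Serpinf1* against the *Col13a1*-type cells. The limits on *Dcn*, *Npnt*, and *Tgfbi* remove cells rich in such genes by construction. Without cells with *Ptprc*, *Cdh5*, or *Epcam* UMIs among the other collagen cells, *Lyz2* (0.066), *Ramp2* (0.13), and *Sftpc* (0.074) turned from below to above 0, and with a *Myh11* limit of 1 *Fbln5* did so (0.057). Of 233 called log2 fold changes of named genes over the 4 comparisons, 160 kept direction and call under every alternative, 64 lost the call under 1 or more, and 16 changed sign under 1.

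With the mouse as a replicate block, 999 genes were higher and 1430 lower against the other collagen cells, 1135 and 1187 against the *Myh11*-type, 1365 and 1474 against the *Col13a1*-type, and 1021 and 496 against the *Agt*/*Stc1*-type cells. Beyond the pericyte and FGF lists, it moved no count by over 1.5 times against the other collagen cells and ended no call of a named gene. DESeq2 called 604 and 988, 795 and 903, 1088 and 1229, and 818 and 328 genes. Low genes are limited by depth, since 1 UMI in all the *Aspn*-high cells of mouse 3 is 0.751 CPM.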
